A study of Mus musculus with 26 samples.

Results

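The comparison described here asks which changes of gene expression regulatory and conventional CD4 T cells share when they pass from the resting to the effector state, and which changes differ between the lineages. It uses 8 of the 26 poly(A) RNA-seq libraries of the series, chosen by their labels alone. They form 4 groups of 2 libraries, all freshly sorted from the spleen and lymph nodes of mice of the C57BL6/J strain that carry Foxp3-IRES-hCD2, an allele in which human CD2 on the cell surface reports Foxp3. Central Treg (cTreg) were CD4+ hCD2+, high for CCR7 and low for CD44. Effector Treg (eTreg) were CD4+ hCD2+ and low for CCR7. Naive conventional cells (Tnaive) were CD4+ hCD2- with the CCR7 and CD44 levels of cTreg, and effector conventional cells (Teff) were CD4+ hCD2- with the low CCR7 of eTreg. The labels give no CD44 limit for the effector gates, no age, and no statement that the libraries of a group came from separate animals. For every gene, the eTreg minus cTreg change was set against the Teff minus Tnaive change on the log2 scale. A positive difference is called toward Treg below, because the gene rose more or fell less in Treg, and a negative one toward conventional.

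Treg are CD4 T cells that restrain immune responses and depend on the transcription factor Foxp3. Resting T cells keep homing receptors such as CCR7 and recirculate through lymphoid tissue. After antigen recognition they lose those receptors and gain adhesion receptors, effector transcription factors such as BATF and Blimp-1, and lineage-dependent cytokines and receptors.

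The 8 libraries held 9774025 to 10641332 counted reads each. Replicates correlated at r = 0.989 to 0.996 on the log CPM scale (read counts per library size after TMM scaling), with Teff the least alike. Foxp3 was at 484 to 540 CPM in the 4 Treg libraries and at 0.274 to 3.20 CPM in the 4 conventional libraries. Ccr7 and Cd44 encode proteins used for sorting, so their changes are not results. The library Teff 1 stood apart in genes of other cells: the 13 tested genes of a plasmacytoid dendritic cell list summed to 855 CPM in Teff 1 and 408 CPM in Teff 2, against 219 to 383 CPM in the other 6 libraries. Siglech, a defining gene of those cells, had 0 CPM in both cTreg libraries, 0 in both eTreg libraries, 0.102 and 0 in Tnaive, and 92.3 and 19.98 in Teff.

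Most activation changes had the same sign in both lineages. Of the 12227 genes tested, 1751 (14.3%) rose in both activations and 1013 (8.28%) fell in both, so 2764 genes (22.6%) changed in the same direction. The difference between the activations itself passed edgeR's quasi-likelihood test at an adjusted p below 0.05 for 663 genes (5.42%), with 192 toward Treg (1.57%) and 471 toward conventional (3.85%). The sign of the difference held in all 16 choices of 1 library a group for 192 of the 192 and 469 of the 471 genes, against 38.3% of all tested genes, and the calls used the same libraries. Changes in opposite directions, with each change and their difference called, were found for 68 genes (0.556%). Across all tested genes the Treg and conventional changes had a Pearson r of 0.770 and a Spearman rho of 0.745, a description over genes, which are not independent replicates. The counts are changed by leaving out single libraries: without cTreg 2 the difference was called for 426 genes, and the toward Treg count went to 105 without cTreg 1 or without eTreg 2, to 108 without cTreg 2, to 112 without Tnaive 1, to 115 without Tnaive 2 and to 124 without Teff 1. The count of opposite changes went to 44 without cTreg 1 and to 39 without eTreg 2.

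**Figure D1:**
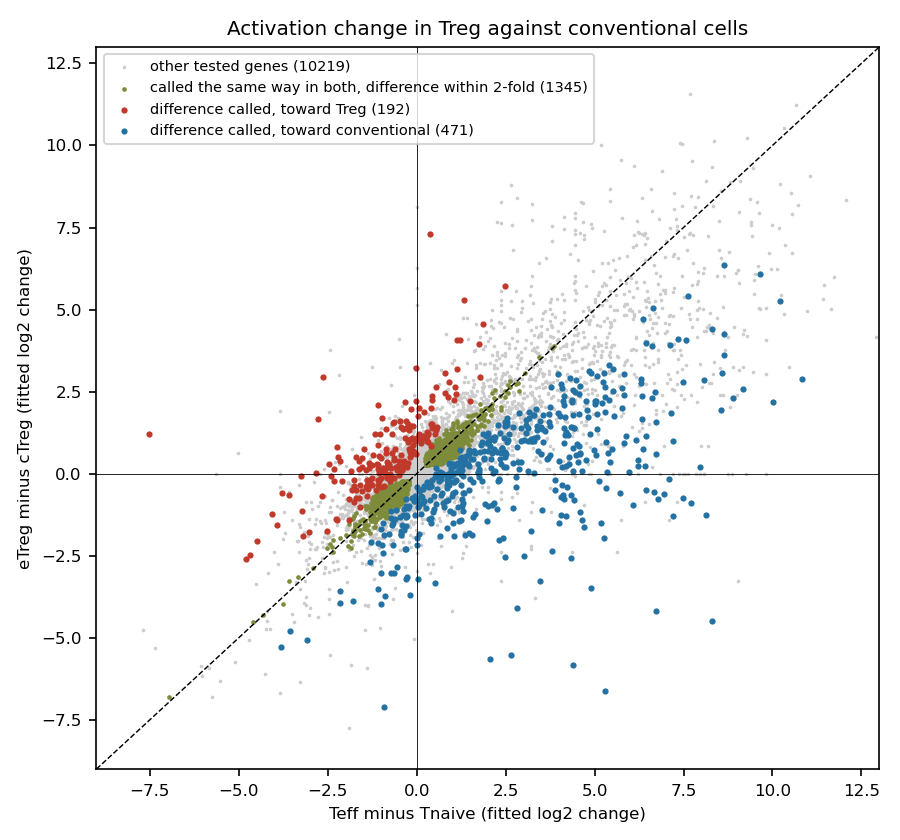
Each point is 1 tested gene, with the fitted log2 change from Tnaive to Teff on the x axis and from cTreg to eTreg on the y axis. Genes called toward Treg (192) lie above the dashed line of equal change and those called toward conventional (471) below it. The group marked as within 2-fold (1345) leaves out 15 of the 1360 such genes, whose difference was also called.

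A test that is missed does not show that 2 changes are alike, so the shared genes were also read by the interval of their difference. Of the 2764 genes changed in the same direction, 260 had a called difference and 1360 (11.1% of all tested genes) had a 95% interval of the difference inside a 2-fold range. For 1159 genes neither held, and nothing can be said about them at this spread. The 1360 genes were 599 that rose and 761 that fell. Among the 1751 genes that rose in both, the median change was 1.69 in Treg and 2.07 in conventional cells on the log2 scale. Among the 1013 that fell in both, the medians were -0.75 and -0.78.

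Of the genes called in at least 1 activation (5280), 2448 passed in 1 activation only. For 2117 of those the difference was not called, so passing in 1 lineage alone did not show a lineage difference. The remaining 331 divided into 58 higher in Treg only, 149 higher in conventional only, 54 lower in Treg only and 70 lower in conventional only.

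The shared rises of largest size included a transporter and a cell division gene. Slc39a4, which encodes the zinc importer ZIP4, had 5.36 and 3.57 CPM in cTreg, 48.9 and 57.1 in eTreg, 5.09 and 3.096 in Tnaive, and 40.3 and 48.1 in Teff. Both effector groups lay above both resting groups with no overlap, and the changes were 3.56 in Treg and 3.43 in conventional cells, with a 95% interval of the difference of -0.68 to 0.95. Crmp1, a collapsin response mediator, had 8.56 and 12.5 CPM in cTreg, 69.4 and 73.3 in eTreg, 6.11 and 8.19 in Tnaive, and 51.5 and 51.4 in Teff, and the 95% interval of its difference was -0.68 to 0.51. Racgap1, needed for cytokinesis, had 5.17 and 6.34 CPM in cTreg, 34.98 and 36.8 in eTreg, 6.42 and 6.69 in Tnaive, and 40.6 and 40.2 in Teff. It rose by a log2 of 2.64 in Treg and 2.62 in conventional cells, and the effector libraries of both lineages lay within 35.0 to 40.6 CPM.

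Naip2, an inflammasome receptor whose reads may be shared with the other Naip genes, had 6.21 and 6.64 CPM in cTreg, 44.7 and 47.1 in eTreg, 4.38 and 4.29 in Tnaive, and 27.7 and 25.5 in Teff. Its difference was 0.22 ± 0.37 (SE), edgeR adjusted p = 0.98. Bicd1, a dynein adaptor, had 1.79 and 1.29 CPM in cTreg, 22.7 and 22.9 in eTreg, 0.204 and 0 in Tnaive, and 1.47 and 1.73 in Teff. The 2 Tnaive libraries held 2 reads together, which gives a Teff to Tnaive count ratio of 15.9 with a 95% counting interval of 4.08 to 136.7, and the difference of changes is bounded only to -2.35 to 2.40. Cntnap1, a contactin-associated protein, and Tmprss3, a transmembrane serine protease, also rose in both, with intervals of -1.28 to 1.34 and -1.25 to 1.15. For these 3 genes the interval from the fitted variances passes the 2-fold bound, although the interval from the F statistic, by which they were counted, does not.

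The largest shared fall was that of Igfbp4, an insulin-like growth factor binding protein long used as a marker of naive cells. It had 408 and 501 CPM in cTreg, 4.397 and 3.65 in eTreg, 1185 and 1281 in Tnaive, and 8.31 and 11.6 in Teff. Effector libraries of both lineages stayed below 12 CPM, and the 95% interval of the difference was -0.49 to 0.76. Dapk1, a death-associated protein kinase, had 46.1 and 38.5 CPM in cTreg, 2.01 and 2.21 in eTreg, 34.7 and 33.6 in Tnaive, and 1.56 and 1.82 in Teff. Its 2 falls were -4.32 in Treg and -4.32 in conventional cells. Treml2, a receptor of the TREM family, had 285 and 283 CPM in cTreg, 29.2 in both eTreg libraries, 250.4 and 263 in Tnaive, and 20.8 and 21.8 in Teff, and the interval of its difference was -0.13 to 0.74. Bach2, a transcription factor that holds T cells in the resting state, had 279 and 268 CPM in cTreg, 61.8 and 53.2 in eTreg, 278 and 282 in Tnaive, and 50.4 and 47.4 in Teff. Its levels overlapped across lineages in the resting state and fell in both, with a difference of 0.26 ± 0.15 (SE), edgeR adjusted p = 0.49.

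Gata1, best known as an erythroid transcription factor, fell in both lineages from different levels. It had 39.8 and 49.4 CPM in cTreg, 4.78 and 5.19 in eTreg, 5.703 and 7.79 in Tnaive, and 0.586 and 0.73 in Teff. The Treg group lay above the conventional group in each state, and the falls were -3.16 in Treg and -3.33 in conventional cells. Col11a2, a collagen chain, had 87.5 and 71.6 CPM in cTreg, 12.04 and 9.79 in eTreg, 75.2 and 70.3 in Tnaive, and 9.58 in both Teff libraries. Mex3a, an RNA-binding protein, had 19.9 and 16.8 CPM in cTreg, 4.397 and 2.59 in eTreg, 10.4 and 11.4 in Tnaive, and 2.44 and 1.82 in Teff. Both fell in each lineage without overlap of states.

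**Figure D2:**
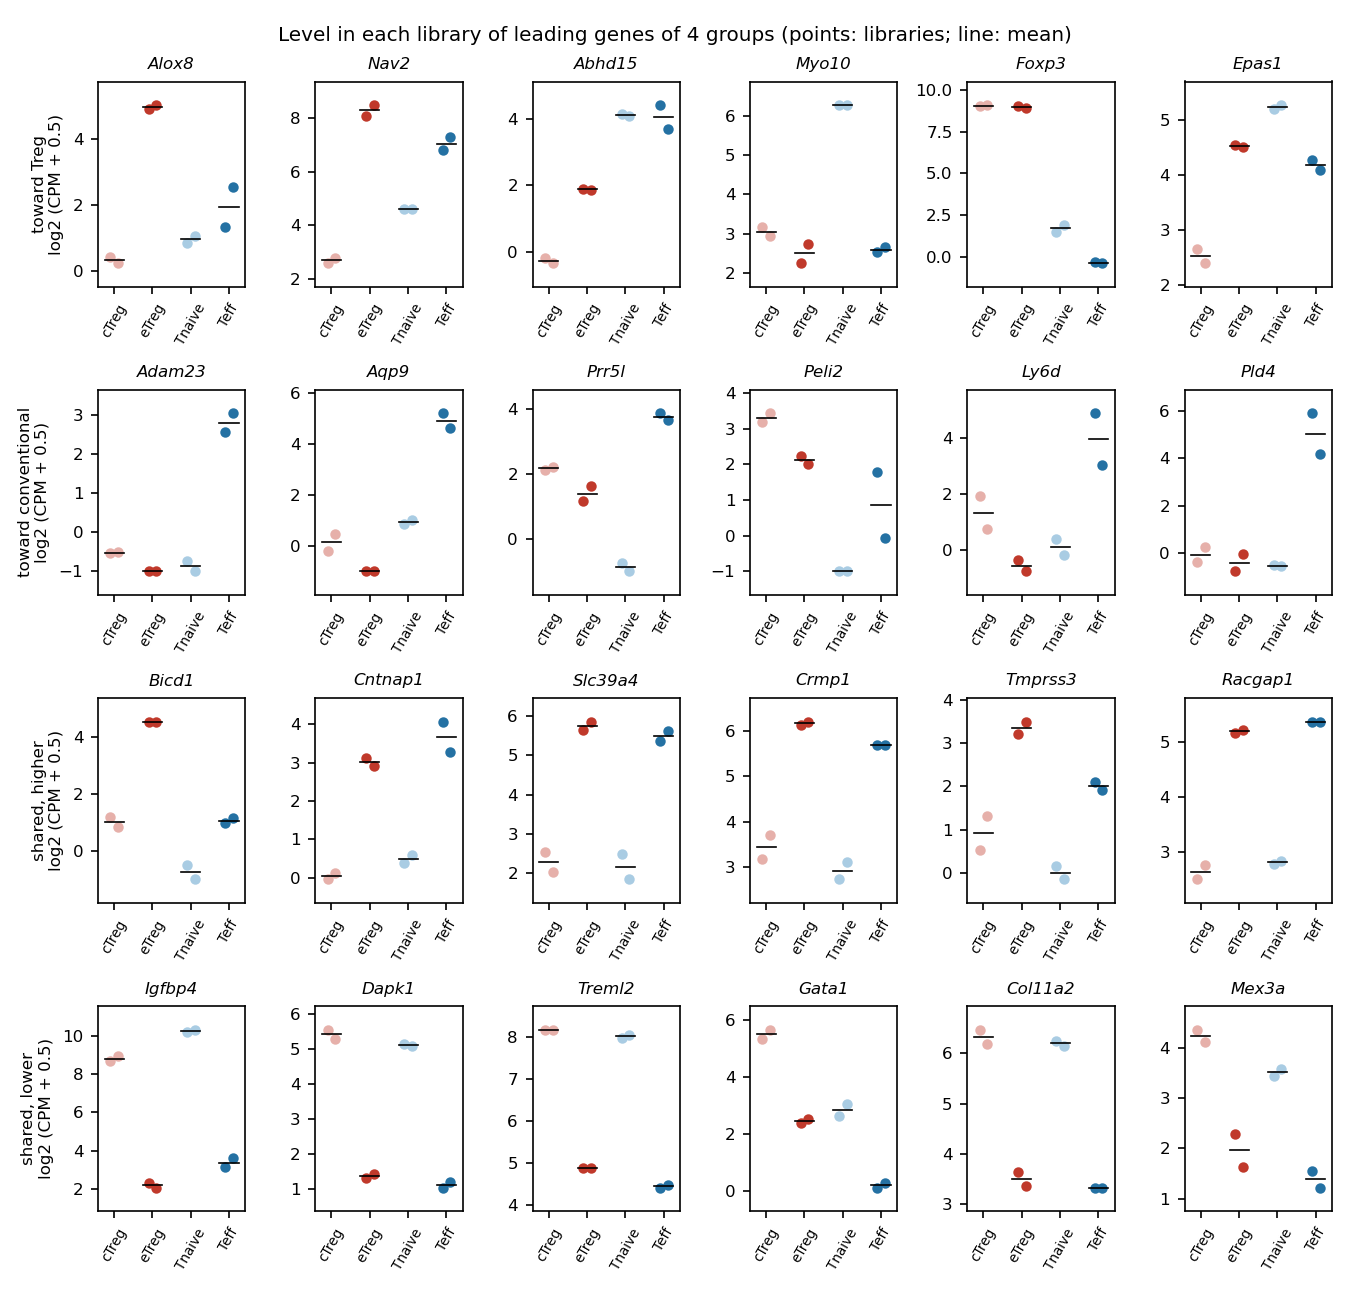
Level of 6 of the leading genes from each of 4 sets (rows) in the 8 libraries, as log2 of CPM + 0.5 on the y axis with its own range in each panel. Points are libraries and lines are the means of 2. In the shared rows both lineages move in the same direction, as for Igfbp4 and Racgap1, though Bicd1 rises further in Treg on this scale. In the upper rows 1 lineage moves alone, as Myo10 does from Tnaive to Teff, or further, as for Alox8. Other panels there show moves in opposite directions, as for Epas1 and Aqp9.

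The genes called toward Treg were led by Alox8 (chr11:69183932-69197843, minus strand), an arachidonate lipoxygenase. It had 0.846 and 0.693 CPM in cTreg, 29.2 and 31.6 in eTreg, 1.32 and 1.598 in Tnaive, and 2.05 and 5.29 in Teff. The eTreg libraries were far above all 6 others, and the difference of changes was 3.95 ± 0.76 (SE), edgeR adjusted p = 0.0023. Nav2 (chr7:48908716-49610090, plus strand), a neuron navigator protein, had 5.55 and 6.44 CPM in cTreg, 274 and 361 in eTreg, 24.2 and 23.9 in Tnaive, and 112 and 157 in Teff. It rose in both lineages and started lower in cTreg than in Tnaive, so that its difference was 3.24 ± 0.48 (SE), edgeR adjusted p = 0.00021. Abhd15, a hydrolase-domain protein, had 0.376 and 0.297 CPM in cTreg, 3.25 and 3.17 in eTreg, 17.1 and 16.3 in Tnaive, and 20.7 and 12.3 in Teff. It rose in Treg from near 0 and stayed below both conventional groups, with a difference of 3.22 ± 0.73 (SE), edgeR adjusted p = 0.0031. Epas1, which encodes the hypoxia factor HIF-2 alpha, had 5.74 and 4.76 CPM in cTreg, 22.7 and 22.1 in eTreg, 36.4 and 38.05 in Tnaive, and 18.8 and 16.6 in Teff. Its changes had opposite signs, 2.09 in Treg and -1.07 in conventional cells, with a difference of 3.16 ± 0.29 (SE), edgeR adjusted p = 9.6e-07.

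Other leading genes toward Treg fell only in conventional cells. Myo10, a myosin of filopodia, had 8.46 and 7.23 CPM in cTreg, 4.301 and 6.24 in eTreg, 76.3 and 76.4 in Tnaive, and 5.28 and 5.84 in Teff. Tnaive alone was high, and the difference was 3.20 ± 0.37 (SE), edgeR adjusted p = 1.6e-05. Nacc2, a transcriptional repressor with a BTB domain, had 3.197 and 4.66 CPM in cTreg, 2.29 and 2.69 in eTreg, 43.7 and 45.8 in Tnaive, and 4.79 and 2.74 in Teff. It showed the same order, with a difference of 2.93 ± 0.47 (SE), edgeR adjusted p = 0.0006. Brdt, a bromodomain protein of the germ line, had 0.94 and 1.78 CPM in cTreg, 1.82 and 2.98 in eTreg, 7.43 and 8.59 in Tnaive, and 1.56 and 1.82 in Teff. Its fall in conventional cells was called and its Treg change was not, and the difference was 3.05 ± 0.51 (SE), edgeR adjusted p = 0.00058.

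Foxp3 itself was among them. It had 519.7 and 540.3 CPM in cTreg, 522 and 484 in eTreg, 2.34 and 3.196 in Tnaive, and 0.293 and 0.274 in Teff. The Treg levels overlapped between states, while the conventional cells, sorted as hCD2-, fell from a low level to 6 reads over both Teff libraries. The resulting difference of 3.17 ± 0.58 (SE), edgeR adjusted p = 0.00023, is therefore a change among cells gated against the Foxp3 reporter.

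The genes called toward conventional were more numerous and had larger fitted differences: 229 of 471 differed at least 4-fold, against 45 of the 192 toward Treg. The median log2 differences were -1.96 and 1.21. Fitted sizes are inflated where a group has 0 reads or few: Itgb8 was fitted at -7.93, against -4.20 with a floor of 3 reads. Genes of other cells that were high in Teff are also among the 471. Because a list of called genes is chosen by its size of change, those medians describe the lists only. Prr5l (chr2:101714285-101883027, minus strand), which binds the kinase complex mTORC2, had 3.86 and 4.16 CPM in cTreg, 1.72 and 2.59 in eTreg, 0.102 and 0 in Tnaive, and 13.97 and 11.95 in Teff. It fell in Treg and rose in conventional cells, where 1 Tnaive read gives a count ratio of 256.4 (95% counting interval 45.6 to 10160). Its difference passed at edgeR adjusted p = 9.3e-09. Aqp9 (chr9:71110659-71168682, minus strand), a channel for water and glycerol, had 0.376 and 0.892 CPM in cTreg, 0 in both eTreg libraries, 1.32 and 1.498 in Tnaive, and 36.2 and 24.1 in Teff. With 0 reads in eTreg, its difference is given against a floor of 3 reads over the group, as at least 92.5-fold toward conventional, and it passed at edgeR adjusted p = 2.5e-05.

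Itgb8 (chr12:119158022-119238802, minus strand), the beta chain of an integrin that activates TGF-beta, had 9.03 and 8.32 CPM in cTreg, 58.8 and 70.8 in eTreg, 0 in both Tnaive libraries, and 11.3 and 29.5 in Teff. It rose in both lineages and eTreg held the highest level. The Teff level was at least 136.9-fold above the floor of 3 reads for Tnaive, and the difference was at least 18.4-fold toward conventional (edgeR adjusted p = 0.0058). That call ended without Tnaive 1 (edgeR adjusted p = 0.0512), without Tnaive 2 (edgeR adjusted p = 0.055) and in a fit of the 8 libraries alone (edgeR adjusted p = 0.239). Adrbk2, which encodes the receptor kinase GRK3, had 0.282 and 0.0991 CPM in cTreg, 0.86 and 0.96 in eTreg, 0 in both Tnaive libraries, and 13.2 and 10.3 in Teff. Its difference was at least 16.4-fold (edgeR adjusted p = 0.0036), and was not called without cTreg 1 (edgeR adjusted p = 0.169). Peli2, a ubiquitin ligase of the Pellino family, had 8.65 and 10.3 CPM in cTreg, 4.21 and 3.55 in eTreg, 0 in both Tnaive libraries, and 2.93 and 0.456 in Teff. It differed at least 26.6-fold (edgeR adjusted p = 0.00065), and the level in Teff 1 was 3.59 times that in Teff 2. Adam23, an ADAM family member, had 0.188 and 0.198 CPM in cTreg, 0 in both eTreg libraries, 0.102 and 0 in Tnaive, and 5.37 and 7.66 in Teff. Its call was at the threshold (edgeR adjusted p = 0.042) and ended without any 1 of the 8 libraries, where the edgeR adjusted p was 0.0611 to 0.187.

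Ly6d and Pld4 are also genes of plasmacytoid dendritic and B cells. Ly6d had 3.29 and 1.19 CPM in cTreg, 0.287 and 0.096 in eTreg, 0.815 and 0.399 in Tnaive, and 29.02 and 7.75 in Teff. Pld4, an endolysosomal nuclease, had 0.282 and 0.693 CPM in cTreg, 0.0956 and 0.48 in eTreg, 0.204 and 0.2 in Tnaive, and 58.4 and 17.5 in Teff. Both were highest in Teff 1, the library with the most plasmacytoid dendritic transcripts. The Ly6d difference was -8.38 ± 1.38 (SE), edgeR adjusted p = 4.9e-05, and -7.14 (edgeR adjusted p = 4.5e-05) without Teff 1. The Pld4 difference was -8.20 ± 1.57 (SE), edgeR adjusted p = 0.0014, and -7.10 (edgeR adjusted p = 0.00038) without Teff 1. The Pld4 call ended without cTreg 2 (edgeR adjusted p = 0.0967) and in a fit of the 8 libraries alone (edgeR adjusted p = 0.218). The part of other cells in these results was not tested. Leaving out Teff 1 cannot test it, since Teff 2 also held Siglech.

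Of the 68 genes with opposite changes, 56 fell in Treg and rose in conventional cells. Eomes, a T-box factor of cytotoxic and memory cells, had 3.39 and 4.56 CPM in cTreg, 0.573 and 0.768 in eTreg, 2.85 and 4.19 in Tnaive, and 17.98 and 21.7 in Teff. Resting levels overlapped between lineages, and the effector levels parted, with a difference of -5.03 ± 0.62 (SE), edgeR adjusted p = 1.2e-05. Nrp2, a semaphorin receptor, had 6.96 and 8.52 CPM in cTreg, 0.191 and 0.096 in eTreg, 1.73 and 0.999 in Tnaive, and 6.55 and 4.93 in Teff. Its 3 reads in eTreg give a cTreg to eTreg count ratio of 53.7 (95% counting interval 18.1 to 263.2), and its difference passed at edgeR adjusted p = 4.2e-07. Wnt3, a secreted Wnt ligand, had 12.3 and 11.1 CPM in cTreg, 3.92 and 4.32 in eTreg, 0.407 and 0.399 in Tnaive, and 5.37 and 7.85 in Teff. It was higher in cTreg than in Tnaive and the 2 lineages came closer in the effector state, with a difference of -5.51 ± 0.54 (SE), edgeR adjusted p = 1.8e-07. Rhoq, a small GTPase, had 15.4 and 14.3 CPM in cTreg, 5.83 and 5.19 in eTreg, 3.56 and 2.397 in Tnaive, and 15.4 and 8.302 in Teff, and its difference was -3.42 ± 0.35 (SE), edgeR adjusted p = 4e-06.

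Syk, an antigen receptor kinase of B cells and myeloid cells, had 5.36 and 4.95 CPM in cTreg, 0.573 and 0.48 in eTreg, 1.63 and 1.698 in Tnaive, and 27.8 and 9.31 in Teff. Ncf1, a subunit of the phagocyte NADPH oxidase, had 32.4 and 29.6 CPM in cTreg, 10.2 and 6.91 in eTreg, 7.13 and 5.79 in Tnaive, and 24.7 and 8.58 in Teff. Both had nearly 3 times the level in Teff 1 that they had in Teff 2. The Syk difference was -6.73 ± 0.86 (SE), edgeR adjusted p = 1.2e-05, and without Teff 1 -5.75 (edgeR adjusted p = 9.5e-06). The Ncf1 difference was -3.21 ± 0.51 (SE), edgeR adjusted p = 0.00045, and without Teff 1 -2.27 (edgeR adjusted p = 0.0027). The Ncf1 call ended in a fit of the 8 libraries alone (edgeR adjusted p = 0.0649). As for Pld4, leaving out Teff 1 cannot test the part of other cells.

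The other 12 opposite genes rose in Treg and fell in conventional cells. Besides Epas1, 3 of them were picked after their values were seen. Sepp1, selenoprotein P, had 132 and 137 CPM in cTreg, 164 and 173 in eTreg, 338 and 342 in Tnaive, and 126 and 143 in Teff, and its difference was 1.66 ± 0.15 (SE), edgeR adjusted p = 7e-07. Emb, which encodes embigin, a partner of monocarboxylate transporters, had 127 and 131 CPM in cTreg, 221 and 217 in eTreg, 306 and 285 in Tnaive, and 203 and 185 in Teff, and its difference was 1.37 ± 0.13 (SE), edgeR adjusted p = 1.8e-06. F2rl1, a protease-activated receptor, had 32.3 and 39.2 CPM in cTreg, 75.6 and 89.2 in eTreg, 96.95 and 87.9 in Tnaive, and 45.2 and 68.3 in Teff, and its difference was 1.91 ± 0.24 (SE), edgeR adjusted p = 4.5e-05. In each of these 3 genes Tnaive was above cTreg and activation brought the lineages closer.

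BATF binds DNA with Jun proteins at AP-1 sites, so RefSeq promoter windows (GRCm38.p6, 250 bases before to 50 bases after the start site) were searched for TGANTCA on both strands, which is palindromic. Of 9339 tested genes with a window, 5.87% held a match. The share was 10.6% among genes toward conventional, 6.8% toward Treg, 6.4% among shared rises within 2-fold and 5.26% among shared falls within 2-fold. Within the genes toward Treg, it was 13.3% (6 of 45) for those higher in Treg only. For those that rose in both but more in Treg it was 5.26% (1 of 19). Genes with several windows have more chances of a match. Over genes with 1 window the shares were 4.46% for all, 8.02% toward conventional and 4.42% toward Treg. They were 7.89% (3 of 38) for genes higher in Treg only and 0% of 14 for those that rose more in Treg. Among the leading genes of each direction a match was in the window of Brdt (chr5:107330944-107331243, plus strand), where it begins 117 bases before the start site, and in 1 window of Aqp9 (chr9:71162584-71162883, minus strand), where it begins 24 bases before it. Both are shown 5′ to 3′ on the gene's strand with the match in capitals, since they are the leading genes of opposite directions that carry it.
Brdt: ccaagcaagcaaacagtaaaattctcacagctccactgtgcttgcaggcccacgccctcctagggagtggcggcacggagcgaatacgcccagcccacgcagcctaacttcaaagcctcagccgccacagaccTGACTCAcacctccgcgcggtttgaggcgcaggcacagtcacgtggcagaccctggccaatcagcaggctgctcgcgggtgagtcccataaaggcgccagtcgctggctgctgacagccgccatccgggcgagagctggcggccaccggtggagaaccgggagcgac
Aqp9: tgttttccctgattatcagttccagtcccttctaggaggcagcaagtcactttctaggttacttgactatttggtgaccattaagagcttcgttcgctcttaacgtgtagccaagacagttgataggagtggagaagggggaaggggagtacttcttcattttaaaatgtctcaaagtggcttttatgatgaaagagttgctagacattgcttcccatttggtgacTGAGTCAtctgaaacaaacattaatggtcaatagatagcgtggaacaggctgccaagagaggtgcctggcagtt
A match describes these letters and not a bound site.

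The difference of activations equals the lineage difference in the effector state minus that in the resting state, so each called gene was also placed by whether the lineages moved apart or together. Toward Treg, 102 of 192 genes had the larger lineage difference in the effector state (diverging) and 90 in the resting state (converging). Toward conventional, 178 of 471 diverged and 293 converged. Among the 181 genes that rose in both but more in conventional cells, 146 converged: Treg were already higher at rest. Il2rb, the beta chain of the IL-2 and IL-15 receptors, had 951 and 915 CPM in cTreg, 959 and 956 in eTreg, 26.4 and 25.9 in Tnaive, and 1191 and 938 in Teff. Only Tnaive was low, and the difference was -5.31 ± 0.27 (SE), edgeR adjusted p = 1.3e-09. Il12rb2, a subunit of the IL-12 receptor, is an example of divergence with 1.79 and 1.19 CPM in cTreg, 1.05 and 0.864 in eTreg, 2.24 and 1.198 in Tnaive, and 42.1 and 28.4 in Teff. Only Teff was high, and the difference was -4.98 ± 0.56 (SE), edgeR adjusted p = 1e-05.

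**Figure D3:**
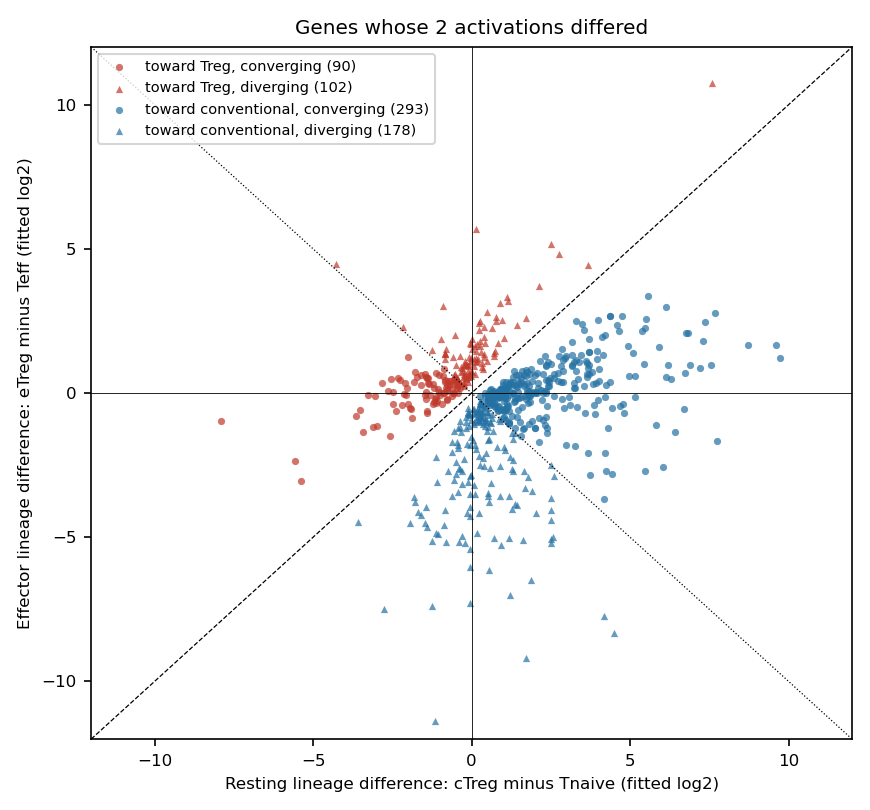
Each point is 1 of the 663 genes with a called difference of activations, with the fitted lineage difference at rest (cTreg minus Tnaive, log2) on the x axis and in the effector state (eTreg minus Teff, log2) on the y axis. Converging genes (circles, 90 toward Treg and 293 toward conventional) lie between the diagonals on the left and right, and diverging genes (triangles, 102 and 178) above and below.

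Lists of known genes are described by counts, without a test of the list. Each count is read against the share of all tested genes, which was 3.85% toward conventional, 1.57% toward Treg, 14.3% higher in both and 8.28% lower in both. Where edgeR called 0 members of a list toward Treg, DESeq2 and limma-voom each called at most 1, and 0 to 3 members were toward Treg at an unadjusted edgeR p below 0.05. Among 21 Treg core genes, 13 were called toward conventional and 2 (Foxp3 and Ikzf4) toward Treg, and the median difference was -2.03, against -0.00262 for all tested genes. The 13 were Il2ra, Il2rb, Ctla4, Ikzf2, Tnfrsf4, Nrp1, Itgb8, Izumo1r, Socs2, Entpd1, Nt5e, Plagl1 and Gpr34. Entpd1, the ectonucleotidase CD39, had 29.8 and 28.2 CPM in cTreg, 49.03 and 49.6 in eTreg, 0.509 and 0.3 in Tnaive, and 34.4 and 33.2 in Teff. Treg expressed it at rest and Teff lay just above cTreg, and the difference was -5.58 ± 0.54 (SE), edgeR adjusted p = 4.3e-08. Nrp1, a semaphorin receptor of thymic Treg, had 223 and 222 CPM in cTreg, 560.4 and 591 in eTreg, 6.82 and 6.19 in Tnaive, and 168 and 273 in Teff, and its difference was -3.71 ± 0.27 (SE), edgeR adjusted p = 6.7e-08. Il2ra, the alpha chain of the IL-2 receptor, had 651 and 665 CPM in cTreg, 425 and 343 in eTreg, 3.87 and 2.497 in Tnaive, and 69.5 and 43.97 in Teff. It fell in Treg and rose in conventional cells without the Teff libraries reaching either Treg group, with a difference of -4.93 ± 0.40 (SE), edgeR adjusted p = 1.5e-07.

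Ctla4, an inhibitory receptor, had 177 and 169 CPM in cTreg, 472 and 446 in eTreg, 6.72 and 6.29 in Tnaive, and 52.3 and 93.2 in Teff. It rose in both, eTreg stayed highest, and the difference was -2.07 ± 0.31 (SE), edgeR adjusted p = 0.00023. In a fit of the 8 libraries alone that call ended (edgeR adjusted p = 0.0555). Members without a called difference included Itgae, the CD103 integrin chain, with 15.3 and 18.7 CPM in cTreg, 395 and 379 in eTreg, 0.917 and 0.799 in Tnaive, and 39.7 and 22.1 in Teff and a difference of -0.64 ± 0.46 (SE), edgeR adjusted p = 0.65. Lrrc32, which encodes the TGF-beta binding protein GARP, had 369.7 and 354 CPM in cTreg, 227 and 181 in eTreg, 0.815 and 0 in Tnaive, and 0.586 and 1.28 in Teff, with a difference of -2.03 ± 0.98 (SE), edgeR adjusted p = 0.31. Capg, an actin-capping protein, had 179 and 197 CPM in cTreg, 372 and 425 in eTreg, 34.3 and 39.3 in Tnaive, and 124 and 130.1 in Teff and a difference of -0.70 ± 0.22 (SE), edgeR adjusted p = 0.078. The Capg difference was called by DESeq2 (adjusted p = 0.0423) and in a fit of the 8 libraries alone (edgeR adjusted p = 0.00246), and that of Lrrc32 by DESeq2 (adjusted p = 0.0471).

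Of 22 naive and quiescence genes, 17 fell in both activations, and for 11 of these 17 the difference was within 2-fold. Toward conventional there were 3 of 22, against 3.85% of all tested genes. Satb1, a chromatin organiser of T cells, had 771 and 781 CPM in cTreg, 66.4 and 64.5 in eTreg, 1161 and 1236 in Tnaive, and 295 and 241 in Teff. It fell further in Treg, with a difference of -1.41 ± 0.19 (SE), edgeR adjusted p = 7.2e-05. Lef1, a Wnt pathway factor of naive T cells, was the 1 member toward Treg, with 463 and 458 CPM in cTreg, 141 and 135 in eTreg, 1018 and 995 in Tnaive, and 178 and 172 in Teff. Tnaive was the highest group, with a difference of 0.78 ± 0.17 (SE), edgeR adjusted p = 0.0059. Txk, a Tec family kinase, and S1pr1, the receptor for lymph node egress, fell further in Treg, with differences of -1.46 ± 0.24 (SE), edgeR adjusted p = 0.00059 and -0.81 ± 0.17 (SE), edgeR adjusted p = 0.0056.

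Among 25 effector transcription factors 21 rose in both activations, with 7 called toward conventional, against 3.85% of all tested genes, and 0 toward Treg. Batf had 33.3 and 34.97 CPM in cTreg, 112 and 151 in eTreg, 32.9 and 32.7 in Tnaive, and 69.4 and 103 in Teff. It rose in both lineages, and its difference of 0.54 ± 0.38 (SE), edgeR adjusted p = 0.68 was not called. Runx2, a Runt factor, had 10.7 and 11.8 CPM in cTreg, 53.4 and 57.997 in eTreg, 0.509 and 0.999 in Tnaive, and 96.05 and 54.2 in Teff, and a difference of -4.31 ± 0.53 (SE), edgeR adjusted p = 4.4e-06. Zbtb32, a repressor of the BTB family, had 1.88 and 1.59 CPM in cTreg, 10.4 and 11.3 in eTreg, 0.611 and 0.799 in Tnaive, and 21.8 and 34.58 in Teff, with a difference of -2.66 ± 0.51 (SE), edgeR adjusted p = 0.0017. Both were highest in Teff as a group, but for Runx2 the Teff and eTreg libraries overlapped. Runx2 is also a member of the plasmacytoid dendritic list, and its level in Teff 1 was 1.77 times that in Teff 2. Without Teff 1 the Runx2 difference was -3.84, and the part of other cells in it was not tested. Ikzf3, the factor Aiolos, fell in Treg and rose in conventional cells, with a difference of -1.25 ± 0.17 (SE), edgeR adjusted p = 8.7e-05. Prdm1, which encodes Blimp-1, was highest in eTreg, at 9.22 and 10.8 CPM in cTreg, 66.9 and 77.3 in eTreg, 8.45 and 10.5 in Tnaive, and 27.9 and 28.6 in Teff. Its difference of 1.27 ± 0.38 (SE), edgeR adjusted p = 0.061 was not called here, and was called by DESeq2 (adjusted p = 0.0219) and in a fit of the 8 libraries alone (edgeR adjusted p = 0.000852). Id2, an inhibitor of E proteins, had a difference of -0.99 ± 0.30 (SE), edgeR adjusted p = 0.068, and Maf, a driver of Il10, one of -0.99 ± 0.39 (SE), edgeR adjusted p = 0.21, and neither passed. Id2 was called by DESeq2 (adjusted p = 0.0251), without Teff 2 (edgeR adjusted p = 0.0174) and without Tnaive 2 (edgeR adjusted p = 0.0291).

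Th1 genes were the helper list with the most differences. Of 14 tested, 8 were called toward conventional (Tbx21, Cxcr3, Il12rb1, Il12rb2, Il18rap, Eomes, Fasl and Cxcr6), against 3.85% of all tested genes, and 9 rose in both, against 14.3%. DESeq2 called 11 and limma-voom 6 toward conventional. Markers of CD8, NK, NKT and gamma delta T cells, which include Eomes and whose levels are given below with the cytotoxic list, were also highest in Teff. Il12rb1, the shared IL-12 receptor chain, had 26.6 and 31.9 CPM in cTreg, 103 and 95.4 in eTreg, 6.62 and 5.59 in Tnaive, and 111 and 89.3 in Teff. Effector levels of the lineages overlapped while Tnaive was the lowest group, and the difference was -2.26 ± 0.32 (SE), edgeR adjusted p = 0.0001. Among 10 Th2 genes 8 rose in both and 0 had a difference called by edgeR or limma-voom, with 1 called by DESeq2 and 3 at an unadjusted edgeR p below 0.05. Of 10 Th17 genes 2 differed, against 5.42% of all tested genes, Rora and Ccr6, both toward conventional. Ccr6, the receptor for CCL20, had 10.3 and 9.21 CPM in cTreg, 87.6 and 77.01 in eTreg, 0.102 and 0 in Tnaive, and 29.3 and 17.97 in Teff. It rose in both and was highest in eTreg, and 1 Tnaive read gives a Teff to Tnaive count ratio of 465.1 (95% counting interval 83.1 to 18410), with a difference that passed at edgeR adjusted p = 0.00045. Of 14 follicular helper genes 3 differed, all toward conventional. Cxcr5, the follicular homing receptor, had 21.4 and 20.1 CPM in cTreg, 145 and 159 in eTreg, 3.26 and 2.297 in Tnaive, and 179 and 259 in Teff and a difference of -3.42 ± 0.39 (SE), edgeR adjusted p = 8.6e-06.

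**Figure D4:**
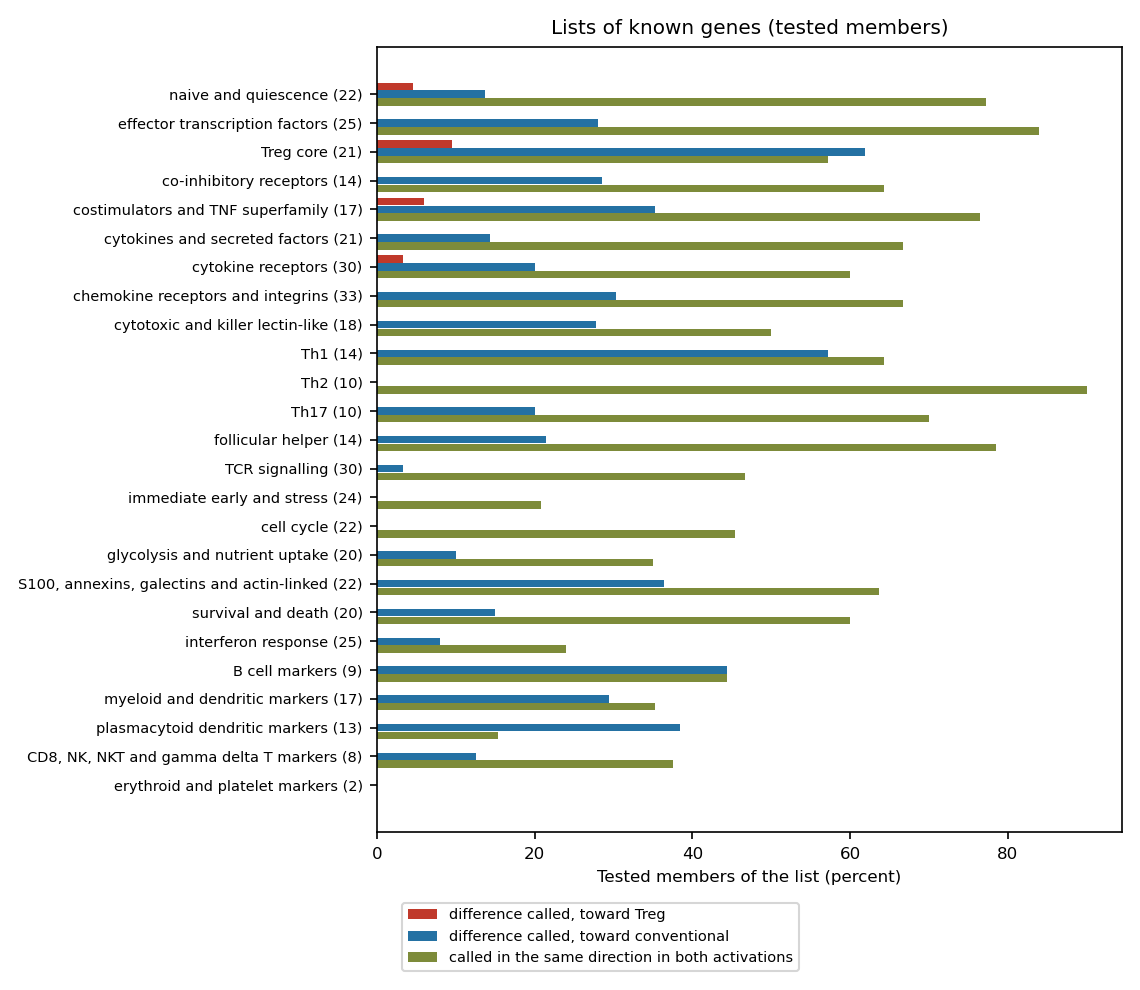
Bars give, for each list of known genes, the percent of its tested members (number in brackets) whose difference of activations was called toward Treg or toward conventional, and the percent called in the same direction in both activations. A gene can count in both kinds of bar. Th1 (8 of 14) and Treg core genes (13 of 21) have the highest shares toward conventional, and cell cycle, Th2 and immediate early genes have 0 by edgeR.

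Of 17 tested costimulators and TNF superfamily genes, 13 rose in both, 6 were called toward conventional, against 3.85% of all tested genes, and 1 (Cd27) toward Treg. Tnfsf14, the ligand LIGHT, had 3.57 and 3.76 CPM in cTreg, 62.2 and 64.9 in eTreg, 1.02 and 0.799 in Tnaive, and 159.6 and 137 in Teff. Tnaive was the lowest group and Teff the highest, and the difference was -3.22 ± 0.50 (SE), edgeR adjusted p = 0.00014. Tnfsf11, the ligand RANKL, reached overlapping levels in eTreg and Teff, with 12.4 and 12.5 CPM in cTreg, 85.2 and 93.3 in eTreg, 2.65 and 4.69 in Tnaive, and 73.4 and 91.1 in Teff and a difference of -1.64 ± 0.26 (SE), edgeR adjusted p = 0.00038. Tnfsf8, the CD30 ligand, had a difference of -1.43 ± 0.27 (SE), edgeR adjusted p = 0.002. Icos, a costimulator, had 53.2 and 56.7 CPM in cTreg, 512 and 548 in eTreg, 53.5 and 52.1 in Tnaive, and 316 and 350.1 in Teff. The resting groups overlapped, eTreg was highest, and the difference of 0.61 ± 0.23 (SE), edgeR adjusted p = 0.16 was not called. It was called in a fit of the 8 libraries alone (edgeR adjusted p = 0.00206).

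Co-inhibitory receptors had 4 of 14 members toward conventional, against 3.85% of all tested genes, and 0 toward Treg. Cd160 had 6.3003 and 6.44 CPM in cTreg, 19.3 and 23.7 in eTreg, 1.63 and 1.298 in Tnaive, and 77.8 and 60.7 in Teff. Teff was highest, with a difference of -3.80 ± 0.52 (SE), edgeR adjusted p = 6e-05. Pdcd1, which encodes PD-1, rose in both with 19.1 and 22.9 CPM in cTreg, 313 and 354 in eTreg, 6.01 and 6.49 in Tnaive, and 169.6 and 329.6 in Teff. The effector libraries overlapped and its difference of -1.33 ± 0.51 (SE), edgeR adjusted p = 0.19 was not called.

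Among 21 cytokine and secreted factor genes 14 rose in both, and 3 were called toward conventional (Tnf, Xcl1 and Lif), against 3.85% of all tested genes, with 0 toward Treg, where DESeq2 called 7 and limma-voom 4 toward conventional. Lif, a cytokine of the IL-6 family, had 7.33 and 9.61 CPM in cTreg, 9.08 and 10.8 in eTreg, 0.407 and 0.399 in Tnaive, and 7.72 and 7.39 in Teff. Only Tnaive was low, with a difference of -3.96 ± 0.50 (SE), edgeR adjusted p = 5.8e-06. Xcl1, a chemokine for XCR1+ dendritic cells, had 0.376 and 0.297 CPM in cTreg, 1.24 and 2.21 in eTreg, 0.102 and 0 in Tnaive, and 31.95 and 26.3 in Teff. Its 1 Tnaive read gives a Teff to Tnaive count ratio of 575.5 (95% counting interval 102.9 to 22770), and the difference passed at edgeR adjusted p = 0.0017. Ccl5, a chemokine of memory cells, had 0.376 and 0.594 CPM in cTreg, 39.7 and 39.8 in eTreg, 0.306 and 0.3 in Tnaive, and 254 and 228 in Teff, and its difference of -3.25 ± 1.05 (SE), edgeR adjusted p = 0.085 was not called. It was called by DESeq2 (adjusted p = 0.00363) and in a fit of the 8 libraries alone (edgeR adjusted p = 0.00151). Cytokine receptors had 6 of 30 toward conventional and 1 (Ifngr2) toward Treg, against 3.85% and 1.57% of all tested genes.

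Trafficking genes, 33 chemokine receptors and integrins, had 10 called toward conventional, against 3.85% of all tested genes, and 0 toward Treg, while 18 rose in both. Itgb1, the beta 1 integrin chain, had 103 and 116 CPM in cTreg, 796 and 844 in eTreg, 63.04 and 60.3 in Tnaive, and 1160.1 and 1284 in Teff. Tnaive was the lowest group and Teff the highest, with a difference of -1.40 ± 0.19 (SE), edgeR adjusted p = 8.2e-05. Ccr8, a receptor of tissue Treg, had 4.61 and 5.55 CPM in cTreg, 54.6 and 70.2 in eTreg, 2.55 and 2.097 in Tnaive, and 12.6 and 7.57 in Teff, and its difference of 1.51 ± 0.46 (SE), edgeR adjusted p = 0.079 was not called. It was called by DESeq2 (adjusted p = 0.0204) and without Teff 1 (edgeR adjusted p = 0.0303).

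Cytotoxic and killer lectin-like genes had 5 of 18 toward conventional and 0 toward Treg by edgeR, against 3.85% and 1.57% of all tested genes, with 8 toward conventional by DESeq2 and 10 by limma-voom. Markers of CD8, NK, NKT and gamma delta T cells moved with them: the 8 tested markers summed to 288 CPM in Teff 1 and 200.3 CPM in Teff 2, against 17.1 to 24.97 CPM in the other 6 libraries. Klrb1c, an NK receptor that both lists hold, had 126 and 84.02 CPM in Teff and at most 7.87 CPM in the other libraries. Zbtb16, which encodes the NKT factor PLZF, had 107 and 67.5 CPM in Teff and at most 0.288 CPM elsewhere. Both markers were chosen after their values were seen. The part of such cells in the cytotoxic, Th1, co-inhibitory and cytokine results was not tested. Nkg7, a cytotoxic granule protein, had 2.92 and 4.16 CPM in cTreg, 20.5 and 21.7 in eTreg, 0.306 and 0.2 in Tnaive, and 176 and 130.5 in Teff. It rose in both, and the Teff libraries were the highest, with a difference of -6.61 ± 0.69 (SE), edgeR adjusted p = 6.5e-08. Ctsw, a cathepsin of killer cells, had 154 and 147 CPM in cTreg, 48.1 and 64.6 in eTreg, 89.5 and 83.9 in Tnaive, and 223 and 188 in Teff. It fell in Treg and rose in conventional cells, with a difference of -2.66 ± 0.24 (SE), edgeR adjusted p = 8.6e-07. Fasl, the death ligand, rose only in conventional cells, with 7.43 and 4.66 CPM in cTreg, 6.69 and 7.11 in eTreg, 9.17 and 7.99 in Tnaive, and 43.6 and 29.1 in Teff and a difference of -1.89 ± 0.38 (SE), edgeR adjusted p = 0.004. That call ended without cTreg 1 (edgeR adjusted p = 0.0672).

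The list of S100 proteins, annexins, galectins and actin-linked genes had 8 of 22 toward conventional, against 3.85% of all tested genes, and 13 rose in both. S100a6, a calcium-binding protein, had 1.97 and 2.87 CPM in cTreg, 90.04 and 94.5 in eTreg, 0.102 and 0.0999 in Tnaive, and 124 and 144 in Teff. With 2 Tnaive reads the Teff to Tnaive count ratio is 1328 (95% counting interval 367.4 to 10970), and the difference passed at edgeR adjusted p = 0.00017. Ahnak, a giant scaffold protein, had 417 and 425 CPM in cTreg, 2019 and 1771 in eTreg, 87.9 and 84.2 in Tnaive, and 1926 and 1657 in Teff. The effector levels of the lineages overlapped and cTreg started above Tnaive, giving -2.21 ± 0.24 (SE), edgeR adjusted p = 1e-05. Anxa2, an annexin, had 13.9 and 13.97 CPM in cTreg, 55.8 and 75.7 in eTreg, 2.34 and 3.096 in Tnaive, and 105 and 127 in Teff and a difference of -3.17 ± 0.38 (SE), edgeR adjusted p = 1.5e-05. Capn2, a calpain subunit, had a difference of -1.04 ± 0.12 (SE), edgeR adjusted p = 1.7e-05.

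In the survival list 3 of 20 genes were toward conventional, against 3.85% of all tested genes. Bcl2, which protects from apoptosis, had 823 and 787 CPM in cTreg, 198 and 163 in eTreg, 281 and 271 in Tnaive, and 142 and 137 in Teff. The cTreg level was about 3 times that of Tnaive and the effector groups were close, with a difference of -1.18 ± 0.23 (SE), edgeR adjusted p = 0.0028. Bcl2l11, which encodes the death factor BIM, had 165 and 147 CPM in cTreg, 52.1 and 53.5 in eTreg, 98.5 and 94.5 in Tnaive, and 76.1 and 67.9 in Teff. It fell in both, further in Treg, with a difference of -1.14 ± 0.18 (SE), edgeR adjusted p = 0.00036. Both a protector and a promoter of apoptosis fell further in Treg.

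TCR signalling genes had 1 of 30 called (Themis, toward conventional), near the 5.42% of all tested genes. DESeq2 called 3 and limma-voom 2 toward conventional. Of the 14 that changed in the same direction in both activations, 13 had a difference within 2-fold. Malt1, a protease of the NF-kappaB pathway, had 123 and 118 CPM in cTreg, 306 and 376 in eTreg, 191 and 177 in Tnaive, and 272 and 384 in Teff, and its difference of 0.67 ± 0.21 (SE), edgeR adjusted p = 0.086 was not called. It was called by DESeq2 (adjusted p = 0.0478) and without Teff 2 (edgeR adjusted p = 0.011). Of 20 glycolysis and nutrient genes 2 were toward conventional (Slc2a3 and Hk2), against 3.85% of all tested genes. Slc2a3, the glucose carrier GLUT3, had 129 and 131 CPM in cTreg, 132 and 123 in eTreg, 53.8 and 59.6 in Tnaive, and 111 and 87.9 in Teff. It rose only in conventional cells, to below the cTreg level in both Teff libraries, with a difference of -0.84 ± 0.17 (SE), edgeR adjusted p = 0.0048.

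Cell cycle genes had 0 of 22 called for the difference by edgeR, 1 by DESeq2 and 1 by limma-voom, with 5 at an unadjusted edgeR p below 0.05, and 10 of them rose in both. Their median difference was -0.87, and 1 of the 10 that rose in both had a difference within 2-fold. Immediate early and stress genes had 0 of 24 called by edgeR, 2 by DESeq2 and 1 by limma-voom, with 2 at an unadjusted edgeR p below 0.05, and 3 of the 5 that changed in the same direction in both had a difference within 2-fold. Interferon response genes had 2 of 25 called, near the 5.42% of all tested genes, Mx1 with -2.21 ± 0.39 (SE), edgeR adjusted p = 0.0012 and Gbp3 with -1.43 ± 0.17 (SE), edgeR adjusted p = 2.1e-05, both toward conventional. Gbp3 shares sequence with other Gbp genes and its counts are uncertain.

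Markers of other cells moved with the toward conventional direction and their part in the results was not tested. Fits without Teff 1 cannot test that part, since Teff 2 also held such transcripts. In bulk libraries, fewer cells of a type and less RNA per cell cannot be told apart. Of the tested markers, 4 of 9 for B cells, 5 of 17 for myeloid and dendritic cells, 5 of 13 for plasmacytoid dendritic cells and 1 of 8 for CD8, NK, NKT and gamma delta T cells were called toward conventional by edgeR, against 3.85% of all tested genes, and 0 toward Treg. DESeq2 called 8 of the plasmacytoid list and 3 of the CD8 and NK list, and limma-voom 4 and 4. The 4 B cell markers were H2-Aa, H2-Ab1, H2-Eb1 and Cd74, which dendritic cells also express. Pax5, a defining B cell factor, held 1 read over both Teff libraries. The myeloid list summed to 532 CPM in Teff 1 and 265 in Teff 2, against 51.0 to 219 in the other 6 libraries. The B cell list summed to 535 and 354, against 24.6 to 163.

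H2-Ab1, a class II antigen-presenting chain, had 1.599 and 1.29 CPM in cTreg, 2.103 and 1.73 in eTreg, 2.44 and 2.596 in Tnaive, and 83.6 and 53.6 in Teff. Its difference was -4.36 ± 0.51 (SE), edgeR adjusted p = 2.6e-05. Mpeg1, the pore protein perforin-2, had 1.32 and 1.68 CPM in cTreg, 2.39 and 3.65 in eTreg, 0.713 and 0.599 in Tnaive, and 161 and 37.04 in Teff. It differed by -6.21 ± 1.16 (SE), edgeR adjusted p = 0.0015, and by -4.80 (edgeR adjusted p = 0.0003) without Teff 1, and was not called by limma-voom (adjusted p = 0.0661) or in a fit of the 8 libraries alone (edgeR adjusted p = 0.351). Irf8, a factor of dendritic cells also present in T cells, had 22.7 and 26.3 CPM in cTreg, 48.7 and 46.1 in eTreg, 8.96 and 9.79 in Tnaive, and 165 and 54.8 in Teff. Its difference of -2.59 ± 0.47 (SE), edgeR adjusted p = 0.0017 was -1.60 (edgeR adjusted p = 0.0015) without Teff 1 and not called with the 8 libraries alone (edgeR adjusted p = 0.221). Ly6c2, which marks monocytes and also memory T cells, had a difference of -6.68 ± 0.92 (SE), edgeR adjusted p = 4.2e-05. Over all 471 genes toward conventional, 29 (6.16%) were at least 2-fold higher in Teff 1 than in Teff 2, against 1.23% of all tested genes. Leaving out Teff 1 gave 359 genes toward conventional.

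The classes were then read in libraries outside the 4 groups whose contrasts define them, although all 26 libraries share the model's filter and estimate of spread: Treg with mutant Batf or Foxp3 against their controls, 2 libraries each, sorted as whole Treg without the effector and resting gates. BATFKO Treg were Batf-/- on Foxp3-IRES-hCD2, set against CD4+ hCD2+ WT Treg. BATFcKO Treg carried Batf flox/flox with a Foxp3-driven YFP-Cre allele beside Foxp3-IRES-hCD2, and were sorted as YFP+ hCD2- as were their controls. Foxp3R397W and Foxp3fs101 (Foxp3KO) Treg came from mice with a second allele, Foxp3-IRES-GFP, and were sorted as hCD2+ GFP-, as were controls with a Foxp3WT-IRES-hCD2 allele. On the log2 scale, Batf changed by -3.19 ± 0.34 (SE) in BATFKO Treg and -1.84 ± 0.30 in BATFcKO Treg, with edgeR adjusted p = 1.7e-05 and 0.0019. Foxp3 changed by -0.25 ± 0.15 in Foxp3R397W (edgeR adjusted p = 0.48) and by -1.60 ± 0.15 in Foxp3KO Treg (edgeR adjusted p = 2e-06). The libraries of WT Treg and BATFKO Treg differed more within the group (chi-square per degree of freedom 22.7 and 29.9) than those of the other 6 mutant and control groups (3.08 to 7.79), so the p-values of BATFKO may be too small. In these unsplit Treg the share of effector cells was not measured.

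A larger share of the genes that rose further in Treg was called lower in mutant Treg than of all tested genes. Of all tested genes, 1.64% were called lower in BATFKO, 1.72% in BATFcKO, 3.94% in Foxp3R397W and 6.39% in Foxp3KO Treg. Among the 23 genes that rose in both but more in Treg, 10 (43.5%), 7 (30.4%), 9 (39.1%) and 13 (56.5%) were called lower in the same order. For the 58 genes higher in Treg only the shares were 15.5%, 10.3%, 20.7% and 31.0%. Over all 192 genes toward Treg, which rose more or fell less in Treg, they were 13.5%, 7.29%, 15.1% and 21.4%. The 181 genes that rose in both but more in conventional cells gave 13.3%, 18.2%, 45.3% and 56.4%, and the 149 genes higher in conventional only 2.01%, 0%, 11.4% and 13.4%. Shared rises without a called difference (1547) gave 7.89%, 9.95%, 15.8% and 30.6%. Some genes were instead called higher, in the same order 4.35%, 0%, 13% and 8.7% of the 23 and 0%, 0%, 10.3% and 8.62% of the 58. Of all 192 toward Treg, 0.521%, 0%, 10.4% and 13% were called higher. For the 181 the shares called higher were 5.52%, 2.21%, 3.87% and 1.66%, and for the 149 they were 7.38%, 0.671%, 2.68% and 2.01%. The 1547 gave 1.87%, 0.129%, 3.17% and 2.52%, and all tested genes 1.05%, 0.319%, 2.18% and 2.62%. The chance of a call depends on level: the median level in WT Treg was 27.6 CPM for the 23 genes, 33.9 for the 181 and 22.5 for the 58. It was 25.4 for the 192, 11.8 for the 149 and 11.8 for the 1547, against 29.4 for all tested genes. Differences between these shares were not tested.

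**Figure D5:**
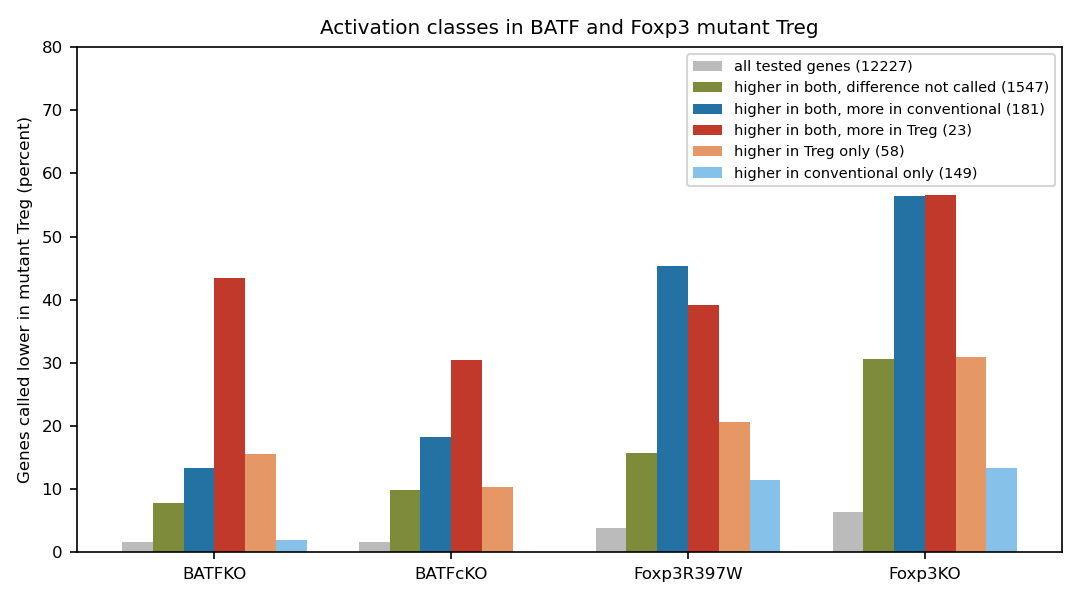
Bars give the percent of genes called lower in each mutant Treg against its control (x axis), for all tested genes and for 5 activation classes with the number of genes in brackets. The 23 genes that rose more in Treg have the tallest bar in both Batf mutants (43.5% and 30.4%). In the Foxp3 mutants the 181 genes that rose more in conventional cells reach a like height.

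Alox8, the leading gene toward Treg, was lower in all 4 mutants, with log2 changes of -3.33 ± 0.76 in BATFKO, -4.11 ± 0.92 in BATFcKO, -3.26 ± 0.63 in Foxp3R397W and -3.09 ± 0.41 in Foxp3KO Treg (edgeR adjusted p = 0.0048, 0.002, 0.001 and 5.3e-05). Nav2 changed by -2.80 ± 0.34 and -3.20 ± 0.38 in the Batf mutants (edgeR adjusted p = 9.3e-05 and 5.7e-05), by -0.92 ± 0.31 in Foxp3R397W (edgeR adjusted p = 0.10) and by -1.31 ± 0.29 in Foxp3KO Treg (edgeR adjusted p = 0.007). Other leading genes toward Treg did not follow these 2. Myo10 was higher in the Foxp3 mutants, by 1.21 ± 0.28 in Foxp3R397W and 0.92 ± 0.22 in Foxp3KO Treg (edgeR adjusted p = 0.011 for each). Epas1 was lower in BATFKO Treg alone (-1.62 ± 0.29, edgeR adjusted p = 0.0022), and Brdt and Nacc2 were called in none of the 4. Whether the Batf and Foxp3 mutants differ from each other was not tested. Abhd15 and Prr5l, picked as examples, lay below the Teff level in both Treg groups and were higher in the Foxp3 mutants. Abhd15 changed by 2.65 ± 0.53 and 2.06 ± 0.32 (edgeR adjusted p = 0.0018 and 0.00032), and Prr5l by 2.58 ± 0.24 and 1.88 ± 0.19 (edgeR adjusted p = 2.5e-06 and 6.6e-06), in Foxp3R397W and Foxp3KO Treg. Other genes below Teff in both Treg groups went different ways. Adrbk2 was higher in Foxp3R397W alone, Eomes and Il12rb2 were called in neither Foxp3 mutant, and Nkg7 was lower in Foxp3R397W. Of the 149 genes higher in conventional only, 2.68% and 2.01% were called higher in these mutants, against 2.18% and 2.62% of all tested genes.

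Shared rises were also among the genes lower in mutants. Of the 599 with a difference within 2-fold, 4.51%, 5.51%, 11.5% and 20.9% were called lower, against 1.64%, 1.72%, 3.94% and 6.39% of all tested genes. Slc39a4 and Naip2, both within 2-fold, were called lower in both Foxp3 mutants, and Crmp1 and Racgap1 in neither. Bicd1, whose difference is bounded only to -2.35 to 2.40, changed by -1.30 ± 0.34 in BATFKO and -2.12 ± 0.51 in BATFcKO Treg (edgeR adjusted p = 0.046 and 0.022). Its changes were -3.47 ± 0.49 in Foxp3R397W and -3.31 ± 0.32 in Foxp3KO Treg (edgeR adjusted p = 6.4e-05 and 3.9e-06). Itgae rose in both lineages, but its difference was not bounded within 2-fold. It was lower in all 4 mutants, with log2 changes of -2.94 ± 0.20, -2.47 ± 0.19, -3.28 ± 0.21 and -3.02 ± 0.18 in the order above (edgeR adjusted p = 1.4e-07, 5.5e-07, 4.2e-08 and 1.7e-08). Of the shared falls without a called difference (957 genes), 1.15%, 1.46%, 8.46% and 12.2% were called higher in the 4 mutants, against 1.05%, 0.319%, 2.18% and 2.62% of all tested genes. For the 54 genes lower in Treg only, the shares called higher were 9.26%, 5.56%, 14.8% and 24.1%.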

How the data were processed

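The authors deposited whole-number read counts for 24411 gene symbols in 26 libraries of poly(A) RNA. Per the submitters' processing notes, reads were aligned to mm10 with STAR 2.6.1c. The counter, annotation and strand setting are not given in the sources used here. Per the labels' protocols either a directional NEBNext Ultra or an UltraII kit was used, so genes that overlap on opposite strands and close paralogs are uncertain. A further 4 columns that match no label were not used. Software was DESeq2 1.42.0, limma 3.58.1 and edgeR 4.0.16 under R 4.3.3. The edgeR expression filter kept 12227 genes. After TMM scaling, the quasi-likelihood model (robust setting, a mean for each of 13 groups) took in all 26 libraries, with 13 residual degrees of freedom, and the difference of activations was a contrast of that model. Genes were called at a Benjamini-Hochberg adjusted p below 0.05 over all tested genes. SE and intervals come from the fitted variances, except for the count within 2-fold, which uses the F statistic. The p-values measure only the spread between these samples, which may be technical.

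Where a group had 0 reads, the fold is a bound against 3 reads over the group, and with 1 to 3 reads a count ratio with its 95% exact interval is given. Both cover counting error only. Named genes needed a mean of 5 CPM in 1 of the 4 groups and were the 8 largest differences in each direction whose sign held in all 16 choices of 1 library a group, the 8 largest shared rises and falls, the 8 largest opposite changes, and up to 7 members of each list (up to 4 with a called difference and 3 without). Immunoglobulin and T cell receptor segments and predicted models were left out. Members, lists and rule were chosen with earlier results of these data known. A sorting marker and some named genes are not reported here. Models were tested on simulated data. Positions are from GENCODE M21 and promoters from RefSeq, both on the mm10 assembly, with 9339 of 12227 genes matched. Alternatives were DESeq2, limma-voom, other scaling, no filter, a fold limit, a larger prior count, the 8 libraries alone, a replicate block and leaving out each library.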

Additional observations from a re-analysis of the deposited data

Results flagged for a closer look

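Each gene below met 1 criterion: its activation change differed between the Treg and conventional lineages in an edgeR test of the difference itself (Benjamini-Hochberg adjusted p below 0.05 over all tested genes), as it did for 663 genes. Values are log2 differences of activations, positive toward Treg.

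Toward Treg were Alox8 at 3.95, Nav2 at 3.24, Abhd15 at 3.22, Myo10 at 3.20, Foxp3 at 3.17, Epas1 at 3.16, Brdt at 3.05 and Nacc2 at 2.93. Smaller differences in that direction were Lef1 at 0.784, Sepp1 at 1.66, Emb at 1.37 and F2rl1 at 1.91.

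Toward conventional, genes with 0 reads in a group are given against a floor of 3 reads: Adam23 at -7.45, Aqp9 at -6.53, Peli2 at -4.73, Itgb8 at -4.20 and Adrbk2 at -4.04. Fitted values of genes with 1 to 3 reads in a group, which depend on the prior count, were Prr5l at -8.61, Nrp2 at -7.71, Xcl1 at -6.57, Ccr6 at -5.51 and S100a6 at -4.97. Genes with opposite changes were Eomes at -5.03, Wnt3 at -5.51, Rhoq at -3.42, Il2ra at -4.93, Ikzf3 at -1.25 and Ctsw at -2.66. Genes that other cell types also express, with the higher level in Teff 1, were Ly6d at -8.38, Pld4 at -8.20, Syk at -6.73, Ncf1 at -3.21, H2-Ab1 at -4.36, Mpeg1 at -6.21, Ly6c2 at -6.68 and Irf8 at -2.59.

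Receptors and ligands were Il2rb at -5.31, Entpd1 at -5.58, Nrp1 at -3.71, Ctla4 at -2.07, Cd160 at -3.80, Il12rb2 at -4.98, Il12rb1 at -2.26, Cxcr5 at -3.42 and Itgb1 at -1.40, with Tnfsf14 at -3.22, Tnfsf11 at -1.64, Tnfsf8 at -1.43, Lif at -3.96 and Fasl at -1.89. Transcription factors were Runx2 at -4.31, which the plasmacytoid dendritic list also holds, Zbtb32 at -2.66 and Satb1 at -1.41. Genes that fell further in Treg also included Txk at -1.46, S1pr1 at -0.814, Bcl2 at -1.18 and Bcl2l11 at -1.14. The remaining genes were Nkg7 at -6.61, Ahnak at -2.21, Anxa2 at -3.17, Capn2 at -1.04, Slc2a3 at -0.841, Mx1 at -2.21 and Gbp3 at -1.43.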

How the results depend on the processing

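The count of genes with a called difference (663) was 1183 in a fit of the 8 libraries alone, whose smaller set of groups gives its own estimate of spread, and 426 to 608 when single libraries were left out, lowest without cTreg 2. The count toward Treg (192) was 121 with an absolute log2 change of at least 1, 431 with the 8 libraries alone and 105 to 145 with a library left out. The count toward conventional (471) was 752 with the 8 libraries alone and 318 to 463 with a library left out. Genes higher in both (1751) were 1150, and lower in both (1013) were 264, with a log2 change of at least 1. Lower in both was 1722 with the 8 libraries alone. Ranges with a library left out were 1382 to 1636 and 743 to 868. Opposite changes (68) were 36 with the log2 limit, 125 with the 8 libraries alone and 39 to 70 with a library left out. Shared genes within 2-fold (1360) were 239, 2584 and 882 to 1088 in the same order, and 1355 with the interval from the fitted variances, an alternative chosen after seeing the data. The causes of these shifts were not tested.

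The 4 sorted groups share replicate numbers, but deviations of same-numbered libraries correlated at 0.0801 to 0.233 over 6 pairs of groups, 2 of them under 0.1, so the numbers were not taken to pair the samples. With the replicate block in all 26 libraries 657 genes were called. With the replicate block in the 8 libraries alone the counts were 1922 called, 791 toward Treg, 1131 toward conventional, 2096 lower in both, 175 opposite and 3201 within 2-fold. DESeq2 called 843 genes, limma-voom 699, DESeq2 size factors within edgeR 668, and a fit with no expression filter 620. With the replicate block in 26 libraries the adjusted p of Adam23 was 0.0578. With the replicate block in the 8 libraries alone Peli2 (0.0612), Runx2 (0.0753), Ctla4 (0.133), Mpeg1 (0.232), Irf8 (0.255) and Itgb8 (0.309) were not called. Under that setting Maf (0.037), Ccl5 (0.000579), Icos (1.83e-05), Prdm1 (8.57e-06) and Capg (1.89e-06) were called. Values in brackets are edgeR adjusted p.

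Over the named genes, 0 reversed in direction. The leading genes of each direction were named only if their sign held in all 16 choices of libraries. For those genes the lack of reversals was therefore largely built in. With a library left out, 13 of 720 gene results lost their call and 4 gained one. Under the other settings 14 of 720 lost it and 16 gained one. Named genes were chosen mainly by size of change, or by list and call, in the same libraries. These counts therefore describe the named genes only, and those over all tested genes are given above.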
